A study of Mus musculus with 24 samples.

Results

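Epiblast stem cells (EpiSCs) are pluripotent lines derived from the epiblast, the layer of the implanted mouse embryo that gives rise to the whole fetus. Here 5 EpiSC lines (10 arrays) were compared with embryonic ectoderm dissected at embryonic day 7.5 (E7.5, 2 arrays), 12 of the 24 arrays of the series, chosen by their labels alone. Lines Wt1 and 129C1 had been made by the original derivation protocol and lines 129Ba1, 129Ba2 and BNa17 in the presence of a Wnt inhibitor. The labels do not say which inhibitor that was. They name one only for a treated 129C1 sample that is not used in the comparison. The culture description lists conventional medium and medium with a Wnt signalling inhibitor without saying which line grew in which. All lines were grown on feeder cells and separated from them before RNA was taken, while the E7.5 tissue, like the E5.5 and E6.5 epiblast of the same fit, came straight from embryos by manual dissection. Strain, clone number, sex and the number of embryos pooled are not given in the sources used here. Nothing states whether replicates are independent cultures or dissections, so the p-values measure the spread between these samples, which may be technical.

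The epiblast is held in a primed pluripotent state by Nodal and FGF signals. Between E6.5 and E7.5 its posterior cells leave through the primitive streak, where Wnt and Nodal induce mesoderm and endoderm, and the anterior cells that remain lose Nodal expression and start to form neural and surface ectoderm. The comparison therefore sets cultured cells, taken from the epiblast and kept pluripotent, beside the tissue that the epiblast becomes in the embryo.

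Levels are log2 processed signals relative to the 75th percentile of the same array, so that 0 is the brightness at that percentile. Levels of different probes are not compared. Replicate arrays of a line were averaged, and differences are the mean of the 5 line means minus the mean of the 2 E7.5 arrays, ± standard error, tested two-sided with limma. A call required a difference of 2-fold or more with a p, adjusted by Benjamini and Hochberg's method, under 0.05. Of 14754 genes tested, 2595 were called (17.6%), 1687 higher in the lines (11.4%) and 908 lower (6.15%), and the median difference over all genes was 0.00. Of the called genes, 1343 were well above background on all 12 arrays. Over all genes tested, every line array lay above both E7.5 arrays for 16.9% and below both for 16.5%. For 694 genes called higher no E7.5 array was well above background, and for 87 called lower no line array was. In those cases a fold is written as "at least N-fold", the mean of the bright side against the mean of a floor on the dim arrays, which is whichever is larger of the probe's signal and the dimmest signal on that array that was well above background. The 75th percentile of signal ran from 69.3 on BNa17 replicate 1 to 214.8 on Wt1 replicate 2, with 183.2 and 158.6 at E7.5. With 2 arrays for the tissue, 1547 genes were called without E7.5 replicate 1 and 1837 without replicate 2, so counts without either array are given wherever they matter. The E7.5 arrays shared a slide with mouse embryonic stem cell (mESC) line J1, Wt1 lay on another slide, the other 4 lines on a slide of their own, and the E5.5 and E6.5 arrays on yet another. Slide and group can therefore not be told apart between lines and tissue, and the level of J1, also grown on feeders, is given as a same-slide value for some genes. Stage differences between E7.5 and E6.5, given beside some results (1348 genes called, 9.14%; 3.23% higher at E7.5 and 5.91% lower), share the E7.5 arrays with the main comparison. The E6.5 and E7.5 arrays lay on different slides scanned on different days, so stage cannot be told apart from slide or scan. The lines were scanned on a further day. In bulk samples such as these, fewer cells of a type and less RNA per cell cannot be told apart.

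The labels were checked against defining genes. Pou5f1, Sox2, Nanog, Fgf5, Otx2, Dnmt3b and Tdgf1 were well above background on all 10 line arrays. The ectoderm genes Sox2, Otx2, Pou3f1, Sox3, Utf1, Sox1, Six3, Tfap2a and Dlx5 were so on both E7.5 arrays. Of these, Pou5f1, Sox2, Nanog, Fgf5, Otx2, Dnmt3b, Pou3f1, Sox3, Utf1 and Sox1 were above background on every array of both groups. Their presence therefore cannot tell the groups apart. Utf1, planned as an ectoderm gene, was higher in the lines, by 2.57. The mesoderm genes T, Mesp1, Tbx6, Pdgfra and Aplnr were also well above background on both E7.5 arrays. Hesx1, also planned as an ectoderm gene, and Msgn1, planned as a mesoderm gene, are not reported here.

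**Figure D1:**
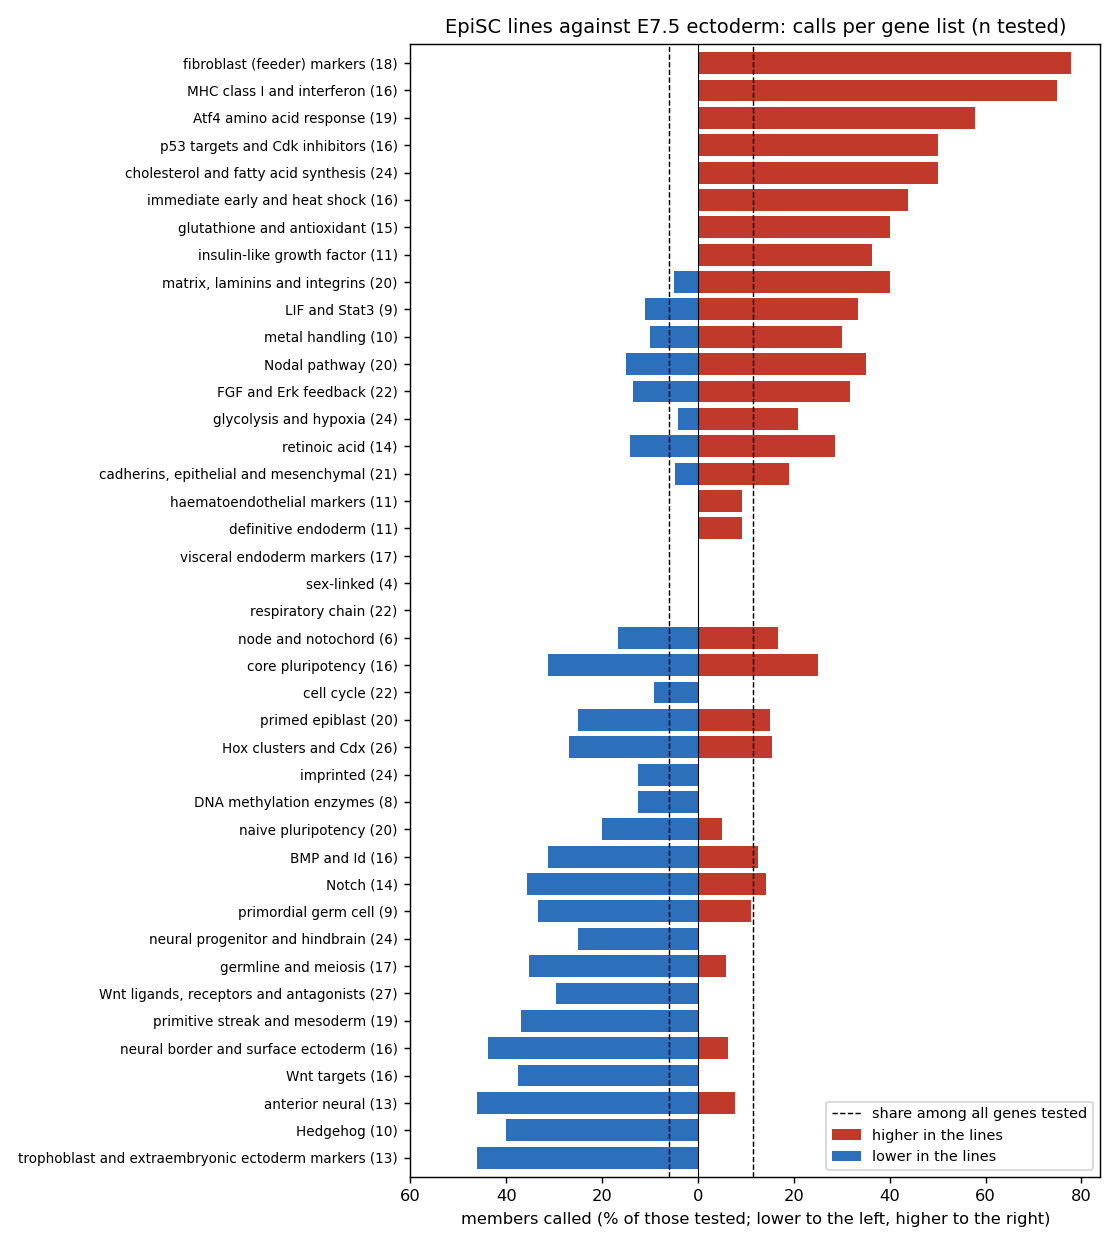
For each of 41 gene lists, the bars give the percentage of tested members (their number in brackets) called higher (right) or lower (left) in the 5 EpiSC lines than in E7.5 embryonic ectoderm, and the dashed lines give the share among all genes tested (11.4% and 6.15%). Fibroblast, cholesterol synthesis, major histocompatibility and amino acid response lists reach only to the right, while both Wnt lists reach only to the left.

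Fibroblast genes, markers of the kind of cell commonly used as feeder, were brighter in the lines than in the tissue. Of 18 fibroblast genes, 14 were called higher in the lines and none lower (11 higher without E7.5 replicate 1, 12 without replicate 2), with a median difference of 4.57, or 4.0 with dim genes at their bounds. The summed signal of the 18 genes, in multiples of the 75th percentile, was 205 to 642 on the line arrays, 23.8 and 26.0 at E7.5, 12.9 and 13.8 at E6.5, and 144 and 195 in J1. All 18 were well above background on every line and J1 array, and Postn, Dcn and Ccl2 on no E7.5 array. Col1a1, a chain of type I collagen, read 3.85 to 5.97 (median 4.65) on the line arrays and -0.18 and -1.57 at E7.5 (5.58 ± 0.61, adjusted p = 0.000352). Dcn, a matrix proteoglycan, read 1.49 to 5.29 (median 4.06) against -3.83 and -2.76 and was at least 144-fold higher (adjusted p = 0.00039). Ccl2, a chemokine made by stromal cells, read 1.26 to 5.59 (median 3.68) against -5.38 and -5.3, at least 168-fold (adjusted p = 0.000241). No line array overlapped the tissue for any of the 3. The part of fibroblast RNA in the other differences described here was not tested.

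Markers of other cell types followed different directions. Of 17 visceral endoderm genes none was called by limma (1 at an unadjusted p under 0.05, 5 dim on both sides, median 0.16, 1 lower without line Wt1). On both E7.5 arrays 6 of them were well above background, while Afp, Ttr, Apoa1 and Apob were on neither. The sum of this list was 19.2 to 34.8 in the lines and 31.2 and 40.3 at E7.5. Of 11 blood and endothelial genes, Kdr alone was called, higher (0 without E7.5 replicate 1, 2 without line BNa17, and 1 lower without line Wt1), and its other probe pointed the opposite way, so that the mean of its probes gave -0.82. Trophoblast and extraembryonic ectoderm genes were brighter at E7.5, with a sum of 32.3 and 39.8 against 2.28 to 11.4 in the lines and 6.36 and 9.95 at E6.5. There 6 of 13 were called lower (4 without either E7.5 array, 3 without line 129Ba1, 129Ba2 or BNa17) and none higher (1 without line Wt1 or Wt1 replicate 2), with a median of -1.36. The defining genes Elf5 and Tpbpa were well above background on no line or E7.5 array, and the called genes Cdx2, Hand1, Tfap2c and Gata3 also belong to embryonic lists. The part of trophoblast cells in their difference was not tested. Of 4 sex-linked genes tested none was called by limma (0 at an unadjusted p under 0.05), and Xist, the RNA that coats the inactive X, read 0.27 in Wt1, 0.41 in 129C1, -5.68 in 129Ba1, -1.13 in 129Ba2 and -5.01 in BNa17, against -5.5 and -5.2 on the E7.5 arrays, neither well above background. The Y-linked gene Eif2s3y, a translation factor subunit, read -4.37 in Wt1, -5.53 in 129C1, 2.74 in 129Ba1, -4.49 in 129Ba2 and 3.12 in BNa17, against 2.78 and 2.63.

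**Figure D2:**
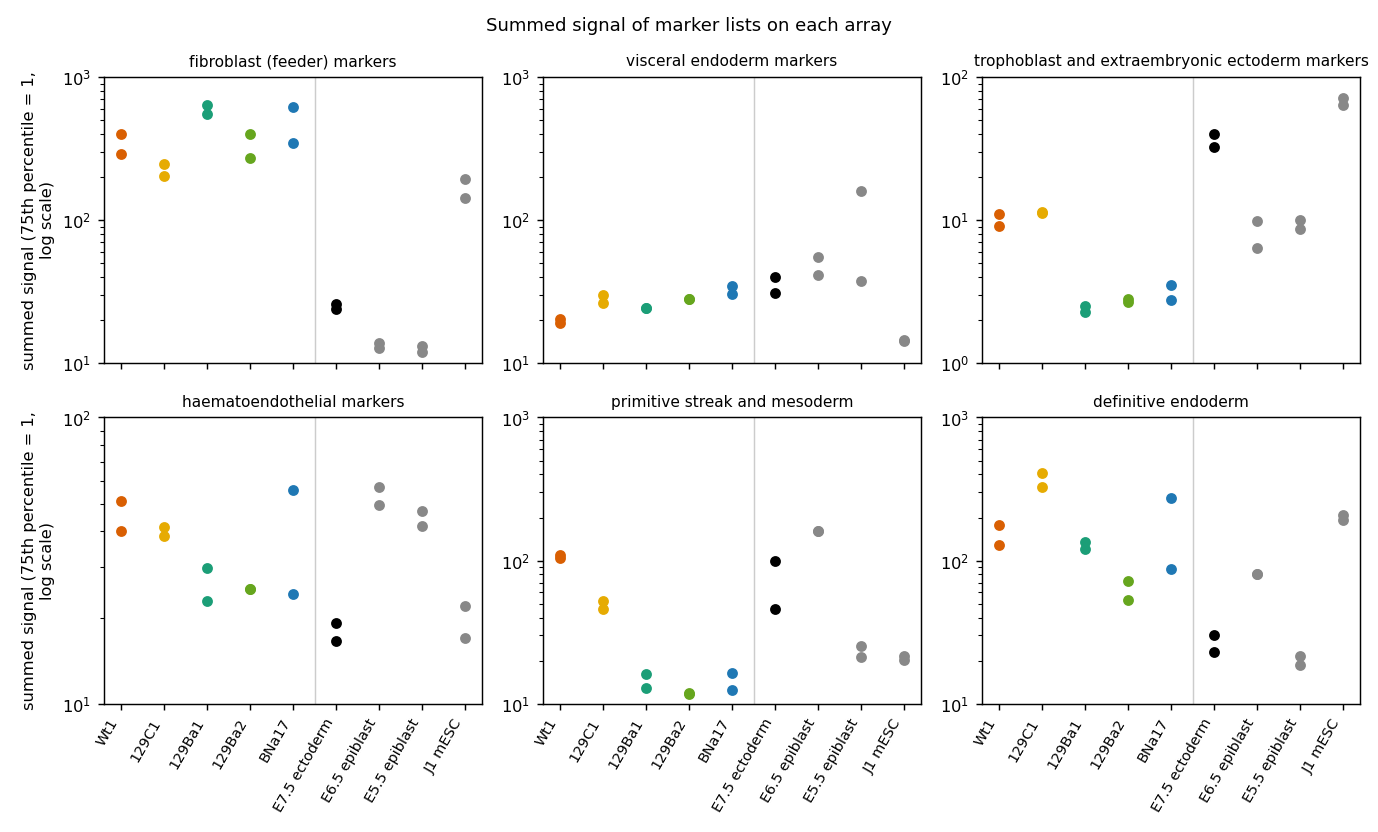
Summed signal of the markers of other cell types on each array, in multiples of the array's 75th percentile on a log axis, by group. The fibroblast sum lies between 144 and 642 in cultured lines and J1 and between 12.1 and 26.0 in the embryonic tissues.

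Among the core pluripotency genes, the 3 best known factors did not pass the test, while other members did, in both directions. Pou5f1, the Oct4 gene, read 5.36 to 7.09 (median 5.86) on the line arrays and 4.88 and 5.46 on the E7.5 arrays, and the groups overlapped (0.77 ± 0.27, adjusted p = 0.0614). Sox2, its partner in epiblast and neural ectoderm, read 1.93 to 2.83 (median 2.43) against 2.67 and 2.69 (-0.30 ± 0.23, adjusted p = 0.349). Nanog read -1.9 to -0.26 (median -1.24) against -0.63 and -0.78 (-0.59 ± 0.30, adjusted p = 0.164), and -0.91 in J1. Of 16 core members, 4 were higher and 5 lower (3 and 3 without E7.5 replicate 1, and likewise without replicate 2), with a median of -0.16. Foxd3, a forkhead factor needed to maintain epiblast cells, read 0.04 to 2.22 (median 1.24) in the lines and -5.69 and -4.05 at E7.5, where it was not above background, and was at least 33.3-fold higher (adjusted p = 6.4e-05). At E6.5 its level was 3.07. L1td1, an RNA-binding protein of pluripotent cells, read 6.3 to 7.49 (median 7.03) against 4.58 and 4.68 (2.34 ± 0.26, adjusted p = 0.00039), with 7.15 at E6.5. Lower in every line array were Sall4, a zinc finger factor of the Oct4 network (2.07 to 3.77, median 3.38, against 5.2 and 5.25; -1.97 ± 0.22, adjusted p = 0.000358; -0.78 and -1.39 on its other probes), and Trim71, a let-7 target and RNA regulator of early embryos (3.05 to 4.37, median 3.96, against 5.39 and 5.39; -1.47 ± 0.21, adjusted p = 0.00129). The second probe of Trim71 gave -0.66, less than 2-fold. Lin28a, which blocks let-7 processing, differed by -1.19 ± 0.14 (adjusted p = 0.000437). Utf1, a chromatin factor of pluripotent cells, was higher by 2.57 ± 0.57 (adjusted p = 0.00951, and 0.098 without E7.5 replicate 1).

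Naive pluripotency genes mark the state before implantation, which mESCs hold and EpiSCs do not. Of 20 tested, 1 was higher and 4 lower, with a median of -0.73. The lower count was 1 and 2 without E7.5 replicate 1 and 2, 2 without line 129Ba1, 129Ba2 or BNa17, and 7 without line Wt1. The higher count, Fgf4, was 0 without E7.5 replicate 1 and 2 without line 129C1, line Wt1, 129Ba1 replicate 1 or Wt1 replicate 2. The factor Klf4 read -1.3 to 1.36 (median -0.05) in the lines, -0.59 and -0.79 at E7.5 and 4.79 in J1. The nuclear receptor Esrrb read -3.12 to -0.70 (median -2.08), -1.35 and -1.44 and 6.87, and Zfp42, or Rex1, -6.21 to -0.38 (median -4.2), -3.44 and -2.62 and 6.8. None of the 3 passed between lines and tissue (adjusted p = 0.425, 0.546 and 0.418), and the J1 mean lay above every line and E7.5 array for each. The member with the largest fall was Tdh, the threonine dehydrogenase of embryonic cells, with -3.35 to -0.68 (median -2.13) in the lines and 4.07 and 4.58 at E7.5 (-6.51 ± 0.58, adjusted p = 0.000115), 8 of the 10 line arrays being well above background. It stood at 3.92 at E6.5, and the stage difference did not pass (0.41 ± 0.69, adjusted p = 0.751).

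Primed epiblast genes divided. Of 20 tested, 3 were higher and 5 lower (1 and 3 without E7.5 replicate 1, 3 and 3 without replicate 2), with a median of -0.41. Fgf5, the classical marker of the implanted epiblast, read 2.65 to 5.06 (median 3.49) in the lines and 0.72 and 1.16 at E7.5 (2.69 ± 0.49, adjusted p = 0.00405, and 0.0505 without E7.5 replicate 1). Its E6.5 level was 5.29. Otx2, a head organiser and epiblast factor, read 4.5 to 6.58 (median 4.94) against 5.86 and 5.74 (-0.58 ± 0.43, adjusted p = 0.338), Pou3f1, a POU factor of epiblast and neural ectoderm, 3.65 to 5.75 (median 4.8) against 4.12 and 4.28 (0.46 ± 0.47, adjusted p = 0.493), and Dnmt3b, the de novo methyltransferase of the epiblast, 6.54 to 8.49 (median 8.05) against 8.79 and 9.05 (-1.03 ± 0.39, adjusted p = 0.0745). These 3 did not pass. The SoxB1 gene Sox3 and the SoxC gene Sox11, both expressed in epiblast and neural plate, were lower on every line array. Sox3 read 3.35 to 4.58 (median 4.14) against 5.79 and 5.77 (-1.74 ± 0.27, adjusted p = 0.00195) and Sox11 1.68 to 2.92 (median 2.23) against 4.08 and 3.92 (-1.76 ± 0.27, adjusted p = 0.0017). Nes, an intermediate filament of neural progenitors, was higher, with 3.75 to 4.08 (median 3.87) against 2.55 and 2.62 (1.3 ± 0.16, adjusted p = 0.000532), and the SD of its 5 line means was 0.06.

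**Figure D3:**
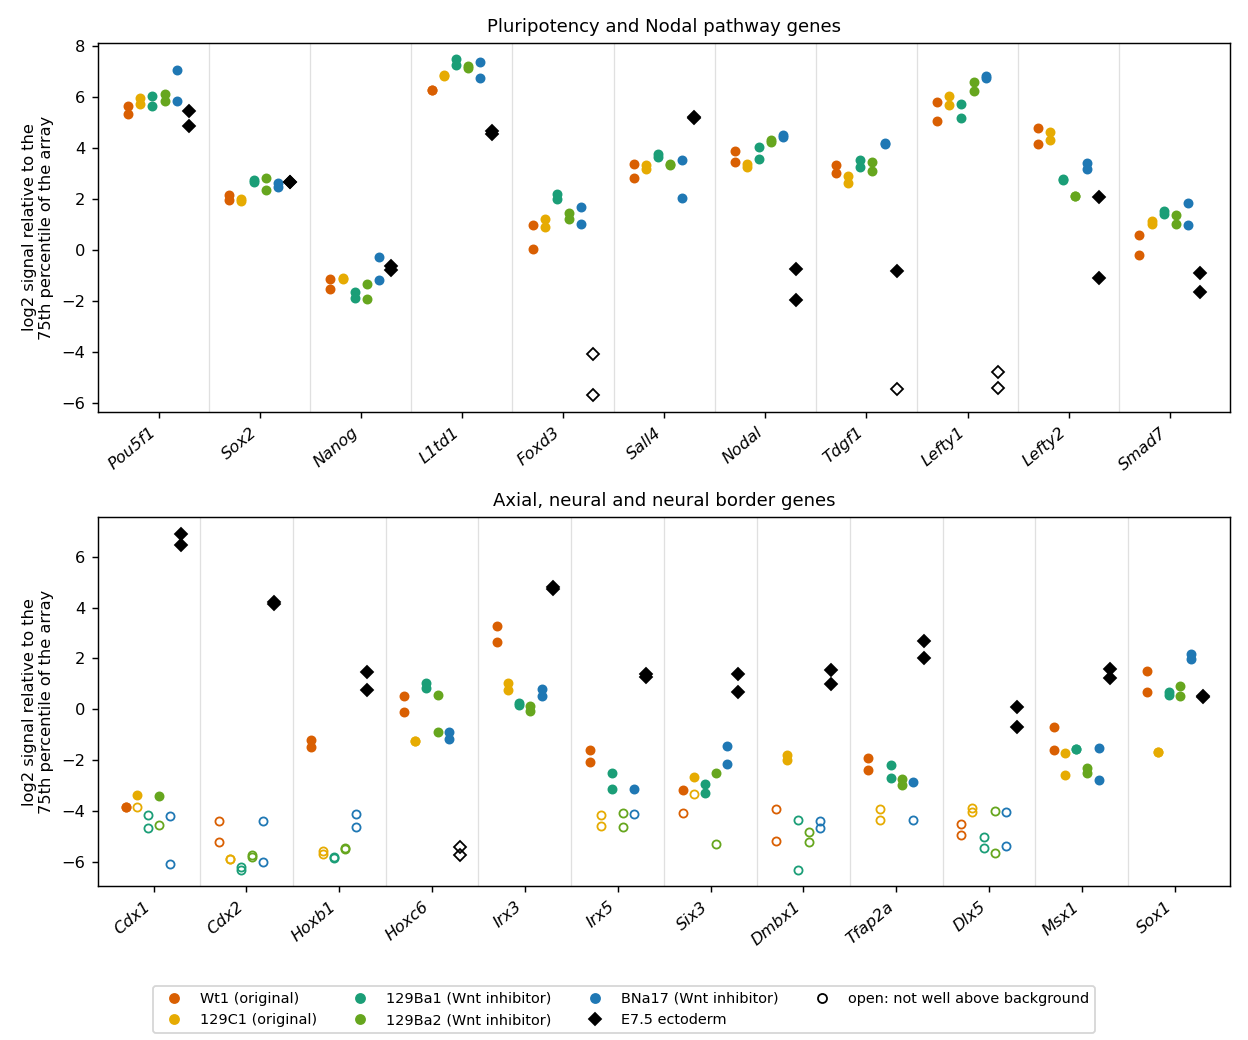
Log2 level relative to the 75th percentile on each of the 12 arrays, with circles for line arrays, diamonds for E7.5 arrays and open symbols where a probe was not well above background. Nodal and Lefty1 lie higher on all 10 line arrays, Cdx1, Cdx2 and Tfap2a lower, and Pou5f1 and Sox2 overlap.

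In the Nodal pathway the ligand, its co-receptor Tdgf1 and 4 feedback inhibitors were higher in the lines. Of 20 tested members, 7 were higher and 3 lower (6 and 2 without E7.5 replicate 1, 7 and 1 without replicate 2), with a median of 0.15. The ligand gene Nodal read 3.26 to 4.52 (median 3.96) on the line arrays and -1.95 and -0.74 at E7.5 (5.26 ± 0.37, adjusted p = 4.26e-05). Its co-receptor gene Tdgf1, or Cripto, read 2.64 to 4.21 (median 3.32) against -5.42 and -0.80 (6.48 ± 0.95, adjusted p = 0.00134), with 1 of the 2 tissue arrays well above background. Its other 2 probes gave differences of 3.53 and 5.87. Lefty1, a secreted Nodal antagonist induced by Nodal itself, read 5.06 to 6.84 (median 5.93) against -5.4 and -4.77, with neither E7.5 array well above background, and was at least 870-fold higher (adjusted p = 1.96e-05). All 10 line arrays lay above both tissue arrays for these 3 genes. The intracellular feedback inhibitors Smad7 (2.36 ± 0.34, adjusted p = 0.00127) and Skil (2.19 ± 0.25, adjusted p = 0.000425) were higher too. Lefty2 passed with 2.94 ± 0.84 (adjusted p = 0.0277) but not without E7.5 replicate 1 (adjusted p = 0.301) or with the slide as a random block (adjusted p = 0.0691).

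Receptors and intracellular transducers of the pathway did not share that direction. Acvr2b, a type II receptor, was lower with a difference of -1.3 ± 0.24 (adjusted p = 0.00457), and the transducers Smad2 (-0.50 ± 0.18), Smad3 (-0.36 ± 0.23) and Smad4 (-0.70 ± 0.15) were not called. The receptor Acvr1b was also called lower (-1.5 ± 0.32, adjusted p = 0.00764, but 0.0636 and 0.055 without E7.5 replicate 1 and 2), as was the ligand Gdf1 (-1.3 ± 0.26, adjusted p = 0.00584, but 0.0583 without E7.5 replicate 2). In the embryo Nodal, Lefty1 and Tdgf1 were lower at E7.5 than at E6.5. That stage difference was -4.62 ± 0.44 (adjusted p = 0.000834) for Nodal and -6.45 ± 1.13 (adjusted p = 0.00857) for Tdgf1, with 1 E7.5 array well above background, and Lefty1 was at least 22.3-fold lower (adjusted p = 0.00334). E6.5 levels were 3.28, 0.72 and 3.34 in that order. J1, on the slide of the E7.5 arrays, read 4.65, 3.74 and 4.22.

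Among the genes that set position along the trunk, those lower in the lines included both tested Cdx genes, homeobox factors that activate posterior Hox genes. Of 26 tested Hox and Cdx members, 4 were higher and 7 lower (2 and 7 without E7.5 replicate 1, 2 and 6 without replicate 2), with a median of -0.76. Cdx1 read -6.07 to -3.37 (median -4.0) on the line arrays, 3 of 10 of them well above background, and 6.45 and 6.91 on the E7.5 arrays (-10.88 ± 0.36, adjusted p = 1.43e-06). Cdx2 read -6.31 to -4.38 (median -5.85) against 4.14 and 4.21, was above background on no line array, and was at least 248-fold lower (adjusted p = 5.88e-05). Both were higher on the E7.5 than on the E6.5 arrays, by 7.25 ± 0.43 (adjusted p = 0.00011) and 5.68 ± 0.89 (adjusted p = 0.00584). Hoxb1, the first Hox gene of the posterior epiblast, read -5.84 to -1.19 (median -5.47) in the lines and 0.74 and 1.45 at E7.5 (-5.63 ± 1.05, adjusted p = 0.00435), with 2 line arrays above background. Both were Wt1 arrays, and the line means were -1.34 in Wt1, -5.64 in 129C1, -5.83 in 129Ba1, -5.47 in 129Ba2 and -4.37 in BNa17. Members called lower in every setting that left out 1 array or line also included Hoxb3 (-2.58 ± 0.44, adjusted p = 0.00291) and Hoxb8 (-3.36 ± 0.46, adjusted p = 0.00103), with 4 and 1 line arrays above background, and Hoxd1, with none and at least 3.13-fold lower (adjusted p = 0.00218). The opposite case was Hoxc6, with -1.26 to 1.03 (median -0.50) in the lines against -5.72 and -5.43, at least 11.3-fold higher (adjusted p = 0.000381). It was also low at E6.5 (-4.23) and stood at -0.66 in J1. The members Hoxa6, Hoxa7 and Hoxc9, later Hox genes, were called higher as well, Hoxa7 by 1.61 ± 0.37, and Hoxa6 and Hoxc9, on no E7.5 array above background, by at least 1.14-fold and 2.3-fold, but each lost the call without 1 or both of the E7.5 arrays (adjusted p = 0.191 for Hoxa6 without replicate 2, 0.119 for Hoxa7 and 0.125 for Hoxc9 without replicate 1).

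Among anterior neural genes, those that differed were mostly lower in the lines. Of 13 anterior neural genes, 6 were lower (3 without either E7.5 array) and 1 higher (0 without either E7.5 array or without 129C1 replicate 1, 2 without line 129C1 or Wt1), with a median of -1.98. Six3, a factor of the forebrain and eye field, read -5.29 to -1.43 (median -3.06) in the lines and 1.39 and 0.70 at E7.5 (-4.14 ± 0.60, adjusted p = 0.00129). Dmbx1, a homeobox gene of the midbrain, read -6.31 to -1.8 (median -4.53) against 1.54 and 0.99 (-5.54 ± 0.77, adjusted p = 0.00105). Hes3, a Notch-type repressor of neural progenitors, read -5.79 to -0.68 (median -2.1) against 3.17 and 3.55 (-5.78 ± 1.01, adjusted p = 0.00328). For all 3 every line array lay below both tissue arrays, with 7, 2 and 8 of the 10 well above background. At E6.5 they read -4.1, -4.54 and -6.36, and all 3 were higher on the E7.5 arrays (adjusted p = 0.00337, 0.006 and 0.00231).

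Of 24 neural progenitor and hindbrain genes, 6 were lower (5 without either E7.5 array) and none higher (1 without E7.5 replicate 2 or line 129C1), with a median of -0.08. The Iroquois factors Irx3 and Irx5, which pattern the early neural plate, were among them. Irx3 read -0.07 to 3.26 (median 0.63) against 4.8 and 4.72 (-3.81 ± 0.66, adjusted p = 0.00318) and Irx5 -4.62 to -1.6 (median -3.61) against 1.4 and 1.29 (-4.74 ± 0.61, adjusted p = 0.000711), the latter with 5 line arrays above background. Hes5, a Notch effector in neural progenitors, differed by -2.73 ± 0.49 (adjusted p = 0.00383). Sox1, the earliest marker confined to neuroectoderm, did not pass (0.06 ± 0.76, adjusted p = 0.961). Its line means were 1.09 in Wt1, -1.69 in 129C1, 0.63 in 129Ba1, 0.70 in 129Ba2 and 2.07 in BNa17, against 0.53 and 0.48 at E7.5, so that 129C1 lay below the tissue and BNa17 above it.

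Of 16 neural border and surface ectoderm genes, 7 were lower (4 without either E7.5 array) and 1 higher (Krt19, 0 without E7.5 replicate 2), with a median of -0.99. Tfap2a, the AP-2 factor of surface ectoderm and neural crest, read -4.37 to -1.92 (median -2.8) on the line arrays and 2.67 and 2.03 at E7.5 (-5.39 ± 0.49, adjusted p = 0.000134), with 7 line arrays above background, and its second probe gave -4.01. Dlx5, a homeobox gene of the anterior neural border, read -5.66 to -3.9 (median -4.73) against 0.08 and -0.68, above background on no line array and at least 11-fold lower (adjusted p = 0.000101). Msx1 and Msx2, homeobox targets of BMP at the neural border, read -2.77 to -0.68 (median -1.65) against 1.57 and 1.23 (-3.28 ± 0.33, adjusted p = 0.000203) and -1.97 to -0.15 (median -1.12) against 1.54 and 1.2 (-2.48 ± 0.41, adjusted p = 0.00255). None of the 4 overlapped between lines and tissue, which in this direction held for 16.5% of all genes tested.

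Primitive streak and mesoderm genes that passed were lower, and the lines differed among themselves. Of 19 tested, 7 were lower (8 without E7.5 replicate 1, 3 without replicate 2) and none higher, with a median of -1.25. The medians of single lines were 0.60 in Wt1, -1.94 in 129C1, and -2.63, -2.67 and -2.51 in 129Ba1, 129Ba2 and BNa17. T, or brachyury, the T-box factor of the streak, read 2.68 in Wt1, -0.34 in 129C1, -3.71 in 129Ba1, -4.95 in 129Ba2 and -4.36 in BNa17, against 2.44 and 4.46 at E7.5. It was well above background on 5 line arrays. Over the 5 lines it passed narrowly (-5.59 ± 1.81, adjusted p = 0.0441), and not with the slide as a random block (adjusted p = 0.115) nor without line 129Ba1, 129Ba2 or BNa17 (adjusted p = 0.0718, 0.0716 and 0.0755), either E7.5 array (adjusted p = 0.118 and 0.248), 129C1 replicate 2 (adjusted p = 0.0578) or Wt1 replicate 2 (adjusted p = 0.0525). Evx1, a homeobox gene of the posterior streak, read -6.17 to -0.30 (median -5.66) against 2.04 and 2.78 (-7.03 ± 1.2, adjusted p = 0.00289), with only the 2 Wt1 arrays well above background. Nkx1-2, expressed beside the streak, read -5.58 to -1.77 (median -3.3) against 0.79 and 1.02 (-4.37 ± 0.56, adjusted p = 0.000678), with 5 line arrays above background, and differed by -2.57 and -3.5 on its other probes. Hand1, a factor of lateral and extraembryonic mesoderm, read -6.21 to -4.32 (median -5.81) against 1.31 and -0.01, was above background on no line array and at least 21.6-fold lower (adjusted p = 4.26e-05).

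The 2 tissue arrays differed in streak transcripts. Among 17 streak genes above background on both E7.5 arrays, 16 were higher in replicate 2, by a median of 0.74, 7 of them by over 2-fold, and 1 was over 2-fold higher in replicate 1. Over all 12086 genes above background on both, 8491 were higher in replicate 2, by a median of 0.14, 79 of them by over 2-fold, and 94 were over 2-fold higher in replicate 1. The summed streak signal was 46.2 and 100 at E7.5, 160 and 162 at E6.5, 104 and 110 in Wt1, 46.2 and 52.5 in 129C1 and 11.7 to 16.5 in the Wnt inhibitor lines. Neural border genes went the other way between the tissue arrays, with 4 of 16 higher in replicate 2 (median -0.34). The part of adjoining mesoderm in the dissected tissue was not tested.

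Of 16 Wnt targets, 6 were lower (3 without either E7.5 array) and none higher, with a median of -1.19. Axin2, the feedback inhibitor that reports Wnt activity in most tissues, read -6.16 to -1.76 (median -5.53) in the lines, above background on 2 arrays, and 0.41 and 0.54 at E7.5 (-5.14 ± 0.93, adjusted p = 0.00375). Its second probe gave -1.88. Sp5, a streak target above background on 4 line arrays, passed (-6.62 ± 2.16, adjusted p = 0.0461) but not with the slide as a random block (adjusted p = 0.12) nor without either E7.5 array (adjusted p = 0.172 and 0.194), any Wnt inhibitor line (adjusted p from 0.0718 to 0.0794) or 4 single line arrays (adjusted p from 0.0505 to 0.0531). Of 27 ligands, receptors and antagonists, 8 were lower (5 without E7.5 replicate 1 or line BNa17, 4 without replicate 2) and none higher (1 without line BNa17, line Wt1, BNa17 replicate 2 or Wt1 replicate 1), with a median of -0.66. The ligand Wnt6, of surface ectoderm, read -6.25 to -2.8 (median -5.11) against 1.89 and 1.0 (-6.28 ± 0.77, adjusted p = 0.000568), with 2 line arrays above background. The receptor Fzd10 read 0.77 to 2.36 (median 1.16) against 3.43 and 3.53 (-2.18 ± 0.33, adjusted p = 0.0015), and Rspo1, a secreted enhancer of Wnt signalling, -0.49 to 0.92 (median 0.10) against 2.4 and 2.51 (-2.31 ± 0.30, adjusted p = 0.000772). For the receptor and the enhancer all line arrays were well above background and below the tissue.

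Endoderm and streak genes separated the 2 kinds of line, and some stood on opposite sides of the tissue. In a fit with both kinds as groups, 3256 genes (22.1%; 13.4% higher, 8.66% lower) were called between original-protocol lines and E7.5, 2783 (18.9%; 12.1% higher, 6.77% lower) between Wnt inhibitor lines and E7.5, and 722 (4.89%; 2.24% higher in Wnt inhibitor lines, 2.66% lower) between the kinds. Of 11 definitive endoderm genes, 9 were higher than E7.5 in original-protocol lines (6 to 9 without any 1 array) and none lower. In the Wnt inhibitor lines 1 was higher (0 without either E7.5 array) and 4 lower (2 without E7.5 replicate 1), and 10 were lower than in the original-protocol lines (9 to 10). Of the 19 streak genes, 4 were higher and 5 lower than E7.5 in original-protocol lines (4 and 3 without E7.5 replicate 2), 11 were lower in Wnt inhibitor lines (6 without E7.5 replicate 2), and 7 differed between the kinds (6 to 8). Of 6 node and notochord genes, 5 were higher than E7.5 in original-protocol lines (4 to 5), 4 lower in Wnt inhibitor lines (3 to 4) and 4 lower in Wnt inhibitor than in original-protocol lines. Over all 5 lines together 1 endoderm gene passed, Trh, higher (2.55 ± 0.52, adjusted p = 0.00671, but 0.0705 without E7.5 replicate 1), and 1 node gene in each direction, the BMP antagonist Nog (1.47 ± 0.26, adjusted p = 0.00361) and T. Trh was bright in both kinds of line, with 5.71 to 8.24 on the line arrays. The summed endoderm signal, which includes Trh, overlapped between the kinds. It was 129 and 177 in Wt1, 410 and 327 in 129C1 and 53.1 to 274 in the Wnt inhibitor lines. At E7.5 it was 22.8 and 30.4, and in J1 208 and 192.

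Foxa2, the forkhead factor of endoderm and node, read 4.22 in Wt1, 4.18 in 129C1, -3.75 in 129Ba1, -4.69 in 129Ba2 and -4.14 in BNa17, against 0.43 and 1.22 at E7.5. It was higher than the tissue in original-protocol lines (3.37 ± 0.64, adjusted p = 0.00514), lower in Wnt inhibitor lines (-5.02 ± 0.58, adjusted p = 0.000566), where 1 of 6 arrays was above background, and the kinds differed (-8.39 ± 0.58, adjusted p = 0.000242). Eomes, a T-box factor of streak and endoderm, read 3.05 in Wt1, 2.62 in 129C1, -0.59 in 129Ba1, -1.23 in 129Ba2 and -1.43 in BNa17, against -0.08 and 1.04. Over the 5 lines it did not pass (0.00 ± 1.21, adjusted p = 0.999). Original-protocol lines were higher than the tissue (2.35 ± 0.41, adjusted p = 0.00373) and Wnt inhibitor lines lower (-1.56 ± 0.38, adjusted p = 0.0151, but 0.115 without E7.5 replicate 2), and the kinds differed (-3.92 ± 0.38, adjusted p = 0.00105). Cfc1, a Nodal co-receptor of the node and lateral mesoderm, read 3.55 in Wt1, 4.63 in 129C1, -4.39 in 129Ba1, -4.75 in 129Ba2 and -4.85 in BNa17, against 1.72 and 2.32, and differed between kinds by -8.75 ± 0.39 (adjusted p = 4.19e-05). It was above the tissue in original-protocol lines (2.07 ± 0.43, adjusted p = 0.00761, but 0.0536 without E7.5 replicate 1) and below it in the others (-6.68 ± 0.39, adjusted p = 4.33e-05), again with 1 of 6 arrays above background. Sox17 and Cer1, endoderm genes above background on neither E7.5 array, differed between kinds too. Sox17 read 0.98 in Wt1, 1.39 in 129C1, -5.56 in 129Ba1, -4.88 in 129Ba2 and -4.23 in BNa17, at least 28-fold lower in Wnt inhibitor lines (adjusted p = 0.00257), and Cer1, a secreted Nodal and Wnt antagonist, 4.21 in Wt1, 5.89 in 129C1, -4.15 in 129Ba1, -4.64 in 129Ba2 and -4.85 in BNa17, at least 398-fold lower (adjusted p = 0.00219). On the line arrays only the 4 of original-protocol lines had either gene well above background. In the opposite direction stood Pmaip1, a p53 target that promotes apoptosis, with -0.50 in Wt1, -1.87 in 129C1, 3.73 in 129Ba1, 3.5 in 129Ba2 and 3.91 in BNa17, against 2.21 and 2.69 at E7.5. It was lower than the tissue in original-protocol lines (-3.64 ± 0.40, adjusted p = 0.000552) and higher in Wnt inhibitor lines (1.26 ± 0.36, adjusted p = 0.0296, but 0.179 and 0.0655 without E7.5 replicate 1 and 2 and 0.0567 without Wt1 replicate 1). The kinds differed by 4.9 ± 0.36 (adjusted p = 0.00034). Line 129C1 shared its slide with the 3 Wnt inhibitor lines, and for these genes its level lay on the side of Wt1. The part of the slide in the difference between kinds was not tested. For T and for the streak sums 129C1 lay between Wt1 and the Wnt inhibitor lines. The ligand Nodal differed from E7.5 by 4.84 ± 0.38 (adjusted p = 0.000182) in the original-protocol and 5.53 ± 0.35 (adjusted p = 5.45e-05) in the Wnt inhibitor lines, and its difference between kinds did not pass (0.69 ± 0.35, adjusted p = 0.26).

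Of the 16 Wnt targets, 1 was higher (2 without E7.5 replicate 1) and 4 lower than E7.5 in original-protocol lines, none higher and 8 lower in Wnt inhibitor lines, and 5 were lower in the Wnt inhibitor than in the original-protocol lines. Their median difference from E7.5 was -0.27 in Wt1, -1.02 in 129C1, -1.15 in 129Ba1, -1.52 in 129Ba2 and -1.86 in BNa17. Of the 4 sex-linked genes, Xist was called higher and Ddx3y, Eif2s3y and Uty lower than E7.5 in original-protocol lines (none without either E7.5 array), none in Wnt inhibitor lines by limma (0 at an unadjusted p under 0.05), and none between kinds by limma (4 at an unadjusted p under 0.05; 1 called higher without 129Ba2 replicate 2 or Wt1 replicate 2).

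**Figure D4:**
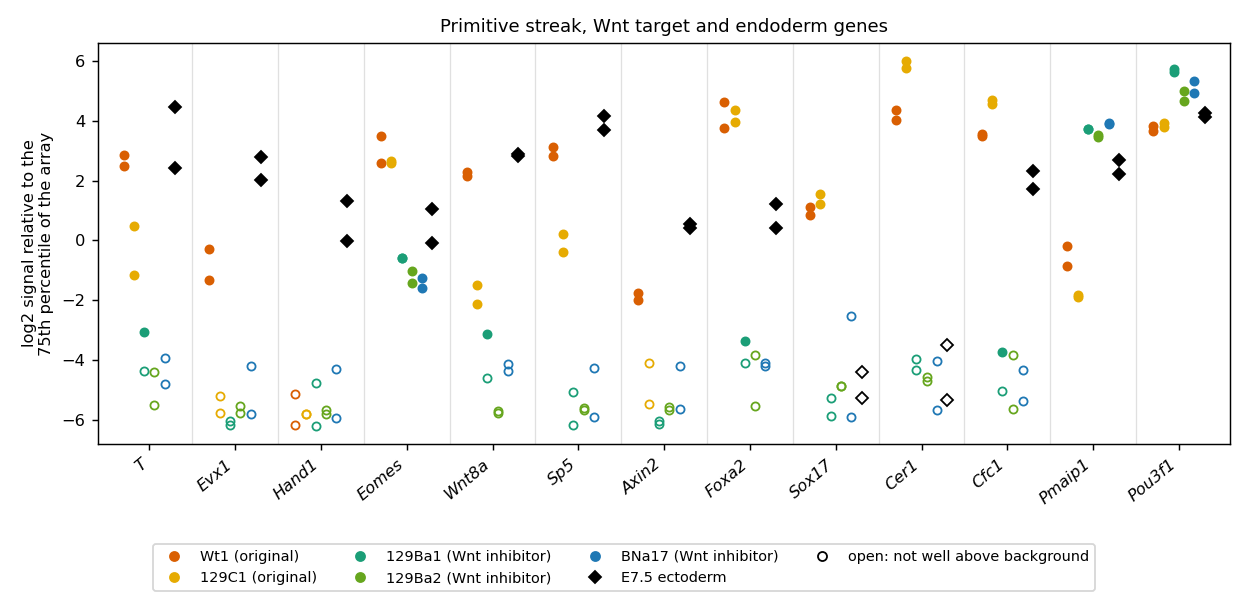
Log2 level relative to the 75th percentile on each array of streak, Wnt target and endoderm genes, with Pmaip1 and Pou3f1, by line, and diamonds for the E7.5 arrays. Open symbols mark probes not well above background. Foxa2, Cfc1, Sox17 and Cer1 are high in Wt1 and 129C1 and low in 129Ba1, 129Ba2 and BNa17.

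In the FGF pathway 4 ligands and 3 Erk feedback or target genes were higher in the lines, and 1 ligand and 2 receptors were lower. Of 22 members, 7 were higher and 3 lower (2 and 3 without E7.5 replicate 1, 6 and 2 without replicate 2), with a median of 0.28. Fgf17, a ligand of the Fgf8 subfamily, read -3.26 to -1.41 (median -1.98) against -5.1 and -4.39, above background on no E7.5 array and at least 2.83-fold higher (adjusted p = 0.00143). Dusp6, an Erk phosphatase induced by FGF, was higher by 1.87 ± 0.29 (adjusted p = 0.0018). The other higher members were Fgf4, Fgf5, Fgf15, Etv5 and Il17rd, and the lower ligand was Fgf3. The receptor Fgfr1 differed by -1.16 ± 0.19 (adjusted p = 0.00215), and Fgfr3, a receptor of the neural plate, read -1.93 to -0.09 (median -0.87) against 1.99 and 1.34 (-2.53 ± 0.42, adjusted p = 0.00251).

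In the BMP list 2 of 16 were higher and 5 lower (lower 3 without E7.5 replicate 1, 2 without replicate 2), with a median of -0.82. Next to Msx1 and Msx2, the lower members were Id1, Id3 and Id4, BMP-induced inhibitors of differentiation. Id1 differed by -2.12 ± 0.46 (adjusted p = 0.00919, and 0.0545 or 0.0791 without E7.5 replicate 1 or 2). Grem1, a secreted BMP antagonist also made by fibroblasts, was higher, with -1.6 to 2.26 (median 0.90) against -4.31 and -3.86, at least 19-fold (adjusted p = 0.00202). It stood at 0.69 in J1 and -6.39 at E6.5. In the Hedgehog list 4 of 10 were lower (2 without either E7.5 array, without line 129Ba1 or 129Ba2, or without Wt1 replicate 2), with a median of -1.25. They included the signal transducer Smo (4.78 to 5.25, median 5.13, against 6.13 and 6.35; -1.17 ± 0.16, adjusted p = 0.00115) and the effector Gli2 (-4.04 to -0.85, median -1.52, against 0.36 and 0.25; -2.0 ± 0.31, adjusted p = 0.00185). The second probe of Smo gave -0.66, less than 2-fold. Of 14 Notch members, 5 were lower (4 without E7.5 replicate 1, 2 without replicate 2) and 2 higher (0 without E7.5 replicate 1, 1 without replicate 2, line 129Ba2, line 129C1, line Wt1, 129Ba1 replicate 2 or BNa17 replicate 2), with a median of -0.58.

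Of 14 retinoic acid genes, 4 were higher and 2 lower (3 and 1 without E7.5 replicate 1, 1 and 1 without replicate 2), with a median of -0.42. The retinaldehyde reductase Dhrs3 read 3.59 to 4.41 (median 3.73) against 1.2 and 0.80 (2.9 ± 0.25, adjusted p = 0.000101).

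Germline genes are silenced in somatic cells by promoter methylation and by repressors that bind E-boxes, and several were lower in the lines than in the E7.5 tissue. Of 17 tested, 6 were lower (6 and 5 without E7.5 replicate 1 and 2) and 1 higher (0 without E7.5 replicate 1), 7 were dim on both sides, and the median was -0.28. Sycp3, of the meiotic chromosome axis, read -6.14 to -4.47 (median -5.19) in the lines, none above background, and -1.28 and -0.89 at E7.5, at least 6.48-fold lower (adjusted p = 2.14e-05). Ddx4, the germ cell helicase Vasa, read -5.92 to -4.04 (median -5.26) against -2.6 and -1.67, at least 3.1-fold lower (adjusted p = 0.000475). Taf7l, a germ cell variant of a TFIID subunit, differed by -1.64 ± 0.23 (adjusted p = 0.00114). Syce1 and Mael passed too (adjusted p = 0.000327 and 0.00163), with 1 and 0 tissue arrays above background. At E6.5 Sycp3 and Ddx4 stood at 0.95 and 0.06, and E7.5 differed from E6.5 by -2.04 ± 0.31 (adjusted p = 0.00483) and -2.2 ± 0.42 (adjusted p = 0.0118).

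Many promoters of this list hold the E-box hexamer CACGTG, the letters bound by Max and related factors. It was searched on both strands in the 250 bases before the start, in RefSeq promoters of build GRCm38.p6, and was found in 10 of 15 germline members with a promoter (66.7%), against 9.51% of all 11697 tested genes with one. Of the 10, 5 were called lower and 5 were not called, and the pairing of motif and list was chosen after the expression results were known. The 200 bases before the start of 3 genes called lower are shown, in the direction of transcription, with the hexamer in capitals.
Ddx4 (chr13:112652311-112652510, minus strand): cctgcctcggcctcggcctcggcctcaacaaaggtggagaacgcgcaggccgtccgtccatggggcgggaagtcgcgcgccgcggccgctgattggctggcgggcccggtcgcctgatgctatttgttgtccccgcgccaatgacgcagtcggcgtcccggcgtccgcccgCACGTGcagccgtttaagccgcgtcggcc
Sycp3 (chr10:88459387-88459586, plus strand): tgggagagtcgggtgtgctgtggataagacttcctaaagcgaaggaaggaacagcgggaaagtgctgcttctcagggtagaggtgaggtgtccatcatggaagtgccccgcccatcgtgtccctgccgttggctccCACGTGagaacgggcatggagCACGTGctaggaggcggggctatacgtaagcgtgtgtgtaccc
Taf7l (chrX:134476491-134476690, minus strand): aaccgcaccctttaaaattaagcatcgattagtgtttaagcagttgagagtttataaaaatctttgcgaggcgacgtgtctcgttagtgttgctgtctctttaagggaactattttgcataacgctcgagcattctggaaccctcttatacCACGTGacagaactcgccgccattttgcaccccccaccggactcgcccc
The hexamer starts at -29 from the start site in Ddx4, at -64 and -43 in Sycp3 and at -49 in Taf7l.

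Of 9 primordial germ cell genes, 3 were lower (1 without E7.5 replicate 1, 2 without replicate 2) and 1 higher (Ifitm3, 0 without either E7.5 array or line 129Ba1), with a median of -1.83. Dnd1, which protects germ cell messages from microRNAs, read -2.68 to -1.47 (median -2.27) in the lines and 1.29 and 1.57 at E7.5 (-3.64 ± 0.26, adjusted p = 4.49e-05). Of 24 imprinted genes, 3 were lower (1 without either E7.5 array) and none higher (1 without line Wt1), with a median of -0.10. Magel2, expressed from the paternal copy, read -0.86 to 0.78 (median -0.24) against 2.3 and 1.94 (-2.24 ± 0.32, adjusted p = 0.00127). Of 8 DNA methylation enzymes, 1 was lower (0 without either E7.5 array), Dnmt3l, a cofactor of de novo methylation (-1.67 ± 0.37, adjusted p = 0.00996, but 0.0668 and 0.0745 without E7.5 replicate 1 and 2), and the median was -0.34.

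Matrix genes that differed were higher in the lines, with 1 exception, Lama1. Of 20 matrix, laminin and integrin genes, 8 were higher and 1 lower (4 and 0 without E7.5 replicate 1, 3 and 1 without replicate 2), with a median of 0.97. The higher count was 5 without 129Ba2 replicate 1 or BNa17 replicate 2 and 4 without Wt1 replicate 2. Spp1, or osteopontin, a secreted integrin ligand, read 3.43 to 6.57 (median 4.55) on the line arrays and -5.42 and -5.13 at E7.5, at least 352-fold higher (adjusted p = 1.71e-05). It read 3.78 in J1 and -2.45 at E6.5. Integrin beta 3 (Itgb3) read -1.97 to 1.36 (median -0.35) against -5.72 and -4.84, at least 9.7-fold (adjusted p = 0.00135), with -1.6 in J1, although its second probe gave a difference of 0.96. Of 21 cadherin, epithelial and mesenchymal genes, 4 were higher and 1 lower (3 and 0 without E7.5 replicate 1, 2 and 0 without replicate 2), with a median of 0.40. Vim, the intermediate filament of mesenchymal cells, read 5.43 to 6.95 (median 6.1) against 3.67 and 3.77 (2.44 ± 0.28, adjusted p = 0.00041) and 6.18 in J1. Fibroblasts also express Vim, Spp1 and Itgb3, and the part of fibroblast RNA in these differences was not tested. Members of this list not called included Cdh1 (-1.24 ± 0.68, adjusted p = 0.2) and Epcam (0.05 ± 0.38, adjusted p = 0.934), adhesion proteins of epithelial epiblast.

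Most listed genes of antigen presentation were higher in the lines. Of 16 major histocompatibility class I and interferon genes, 12 were higher and none lower (7 higher without E7.5 replicate 1, 6 without replicate 2, 1 lower without line Wt1), with a median of 2.76. B2m, the light chain of class I molecules, was higher by 2.75 ± 0.46 (adjusted p = 0.00271), the class I heavy chains H2-K1 and H2-D1 by 1.96 ± 0.29 and 2.55 ± 0.47 (adjusted p = 0.0015 and 0.00413), and the peptide transporter Tap1, above background on no E7.5 array, by at least 2.25-fold (adjusted p = 0.00128). Tapbp, which loads peptides onto class I molecules, read 0.80 to 3.22 (median 1.65) on the line arrays and -1.25 and -1.24 at E7.5 (3.07 ± 0.41, adjusted p = 0.000911). All 5 passed in every setting that left out 1 array or line. Interferon-induced genes varied more between lines. Isg15 read 7.1 in Wt1, -0.17 in 129C1, 1.93 in 129Ba1, 2.83 in 129Ba2 and 1.08 in BNa17, against -2.63 and -1.97 at E7.5 (4.85 ± 1.52, adjusted p = 0.0389), and was lost without either E7.5 array (0.195 and 0.14), line 129Ba1 (0.0504), line 129Ba2 (0.0656) or Wt1 replicate 2 (0.0513). The list median was 4.25 in Wt1 and 1.96 to 2.72 in the other lines. J1 read 1.01 for Tapbp and 1.07 for Isg15.

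Enzymes of cholesterol synthesis were higher in the lines. Of 24 cholesterol and fatty acid synthesis genes, 12 were higher and none lower (8 without E7.5 replicate 1, 12 without replicate 2), with a median of 1.14, and the line medians ran from 0.68 in Wt1 to 1.5 in BNa17. Hmgcs1, which makes the precursor of mevalonate, read 6.06 to 6.99 (median 6.42) on the line arrays and 4.71 and 5.06 at E7.5 (1.59 ± 0.22, adjusted p = 0.00103). Msmo1, a sterol demethylase late in the pathway, read 5.23 to 6.34 (median 5.88) against 3.25 and 3.38 (2.54 ± 0.24, adjusted p = 0.00017). The mevalonate enzymes Mvd (3.33 to 4.1, median 3.64, against 1.76 and 2.15; 1.77 ± 0.20, adjusted p = 0.000385) and Pmvk (5.65 to 6.45, median 6.11, against 4.11 and 4.5; 1.78 ± 0.22, adjusted p = 0.000568) did not overlap either. Fdps (1.43 ± 0.23), Fdft1 (1.49 ± 0.21), Dhcr7 (1.54 ± 0.27) and Nsdhl (1.19 ± 0.17), further enzymes of sterol synthesis, passed in all settings that left out 1 array or line. The fatty acid enzymes of the list, Fasn (-0.54 ± 0.26), Scd1 (0.37 ± 0.27) and Scd2 (-0.29 ± 0.18), picked for mention after their values were seen, were not called. J1 levels of Hmgcs1 and Msmo1 were 5.76 and 5.04, E6.5 levels 5.54 and 3.76.

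Of 19 genes of the amino acid response, which Atf4 induces when amino acids run short or the endoplasmic reticulum is stressed, 11 were higher, 8 were not called and none was lower (4 without E7.5 replicate 1, 7 without replicate 2), with a median of 1.11. Nupr1, a stress-induced nuclear protein, read 2.45 to 5.46 (median 3.11) on the line arrays and -1.64 and -5.3 at E7.5 (6.93 ± 0.95, adjusted p = 0.00103), with 1 tissue array above background. Aldh1l2, a mitochondrial folate enzyme, read -3.41 to -0.64 (median -1.91) against -5.74 and -5.46, at least 3.46-fold higher (adjusted p = 0.00374). Cebpb, a partner of Atf4, read 1.89 to 3.14 (median 2.53) against 0.26 and 0.64 (2.03 ± 0.29, adjusted p = 0.00114). Chac1, which degrades glutathione, was higher by 4.41 ± 1.04 (adjusted p = 0.0127, but 0.0933 and 0.0722 without E7.5 replicate 1 and 2). It read 2.9 in Wt1, 1.96 in 129C1, 5.03 in 129Ba1, 6.48 in 129Ba2 and 4.86 in BNa17 and differed between kinds (3.03 ± 0.59, adjusted p = 0.0212, but 0.099 without Wt1 replicate 1). Asns, asparagine synthetase, was higher by 1.87 ± 0.39 (adjusted p = 0.00708, and 0.0829 without E7.5 replicate 1). In the Wnt inhibitor lines 15 of the 19 were higher than E7.5 (7 without E7.5 replicate 1), in the original-protocol lines 9 (4 without either E7.5 array), and 5 differed between kinds (3 without either E7.5 array or BNa17 replicate 2, 2 without Wt1 replicate 1). Atf4 itself was not called (0.41 ± 0.47, adjusted p = 0.543).

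In the same promoter windows the amino acid response motif TTNCATCA was found in 3 of 16 list members with a promoter (18.8%) and in 2.51% of all tested genes, and the sterol motif TCACNCCAC in 1 of 14 members of the cholesterol list (7.1%) against 1.26%. A motif for the Nodal effector Foxh1, AATNCACA, was in 0 of 11 Nodal pathway members against 2.5%, which says only that those letters are not in these windows. Both strands were searched, and these pairs of motif and list too were chosen with the expression results known. The members with a match, all called higher, are shown over the 200 bases before the start, with the match in capitals; in Asns it lies on the opposite strand.
Chac1 (chr2:119351042-119351241, plus strand): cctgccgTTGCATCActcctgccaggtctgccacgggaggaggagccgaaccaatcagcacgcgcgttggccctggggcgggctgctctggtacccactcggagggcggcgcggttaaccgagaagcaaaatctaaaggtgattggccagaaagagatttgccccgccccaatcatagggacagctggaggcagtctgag
Nupr1 (chr7:126625471-126625670, minus strand): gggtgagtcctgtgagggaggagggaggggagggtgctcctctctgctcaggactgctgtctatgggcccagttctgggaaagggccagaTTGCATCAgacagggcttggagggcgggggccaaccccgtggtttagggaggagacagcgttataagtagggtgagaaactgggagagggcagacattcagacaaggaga
Asns (chr6:7693210-7693409, minus strand): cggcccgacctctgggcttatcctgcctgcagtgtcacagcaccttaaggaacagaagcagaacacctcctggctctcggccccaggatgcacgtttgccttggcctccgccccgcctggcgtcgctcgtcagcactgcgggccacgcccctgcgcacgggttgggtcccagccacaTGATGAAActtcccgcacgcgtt
Hmgcs1 (chr13:119690151-119690350, plus strand): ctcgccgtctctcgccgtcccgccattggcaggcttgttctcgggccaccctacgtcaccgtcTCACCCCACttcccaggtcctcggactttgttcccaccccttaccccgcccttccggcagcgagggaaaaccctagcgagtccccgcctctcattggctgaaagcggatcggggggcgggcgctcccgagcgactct
The matches start at -193, -110, -23 and -137 from the start site. Over all tested genes with a promoter, those called higher held a median of 10 CpG in 250 bases, those called lower 13 and those not called 15.

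**Figure D5:**
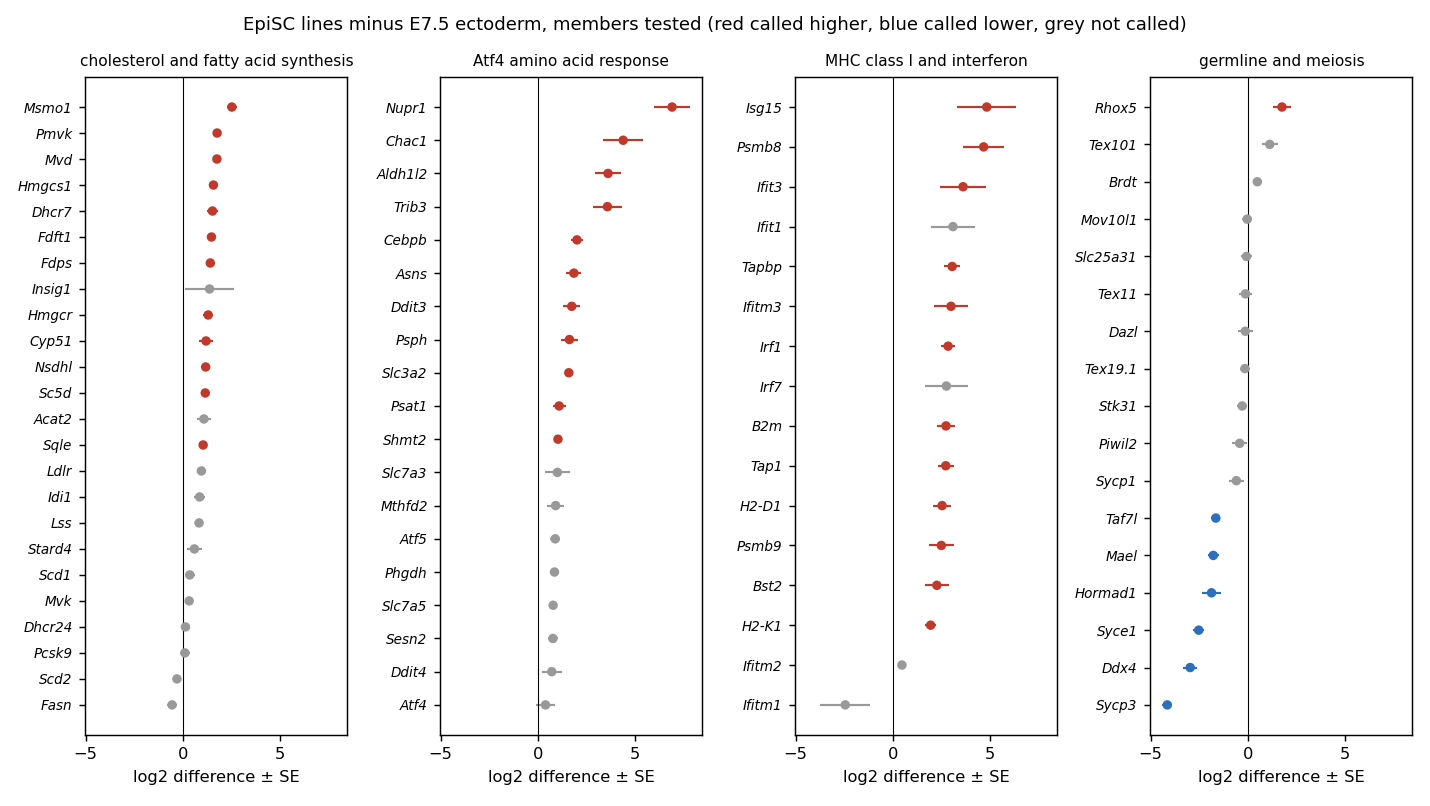
Log2 difference between the lines and E7.5 ± SE for each tested member of 4 lists, red where called higher, blue where called lower and grey where not called. The 19 amino acid response members all lie to the right of 0, and Sycp3 and Ddx4 are farthest left in the germline list.

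Several stress-linked genes were higher in the lines. Of 16 immediate early and heat shock genes, 7 were higher and none lower (4 without either E7.5 array), with a median of 1.60, or 1.38 with bounds. Egr1, an early response transcription factor, read -0.11 to 2.04 (median 1.05) on the line arrays and -4.32 and -4.62 at E7.5, at least 25.1-fold higher (adjusted p = 0.00288), and was at 4.69 in J1. Ier3 (3.45 ± 0.44, adjusted p = 0.000678), an early gene that limits apoptosis, above background on 1 E7.5 array, and the small heat shock protein gene Hspb1 (2.34 ± 0.28, adjusted p = 0.000518) passed in every setting that left out 1 array or line. Of 16 p53 targets and Cdk inhibitors, 8 were higher and none lower (5 without E7.5 replicate 1, 6 without replicate 2), with a median of 1.07. The neighbouring inhibitor genes Cdkn2a and Cdkn2b, which accumulate in cultured fibroblasts, read 2.35 to 4.65 (median 3.7) against -1.95 and -1.6 (5.33 ± 0.42, adjusted p = 6.73e-05) and 0.22 to 3.14 (median 1.46) against -4.34 and -4.27, at least 38.6-fold (adjusted p = 0.00012; log2 differences of 5.83 and 4.21 on its 2 probes). They read 2.96 and 0.76 in J1. Perp, a p53 target of epithelial junctions, was higher by 2.68 ± 0.33 (adjusted p = 0.000544). Of 15 glutathione and antioxidant genes, 6 were higher (3 without E7.5 replicate 1, 4 without replicate 2) and none lower, with a median of 0.83. They included haem oxygenase Hmox1 (2.53 ± 0.24, adjusted p = 0.000139), and Srxn1, which repairs peroxiredoxins (3.02 ± 0.27, adjusted p = 0.000126).

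None of 22 respiratory chain genes was called by limma (2 at an unadjusted p under 0.05, against 41.3% of all genes tested; 1 called higher without line 129Ba1), with a median of 0.01. Of 24 glycolysis and hypoxia genes, 5 were higher and 1 lower (4 and 0 without E7.5 replicate 1, 3 and 1 without replicate 2; 2 lower without line 129C1 or BNa17 replicate 2), with a median of 0.05. Those called higher were hypoxia-induced genes that are not glycolytic enzymes, such as Car9, a membrane carbonic anhydrase (-1.72 to 0.12, median -0.78, against -3.42 and -4.23, at least 5.83-fold, adjusted p = 0.00104), and Adm, a vasodilator peptide (0.19 to 1.37, median 0.72, against -2.1 and -2.44; 3.06 ± 0.34, adjusted p = 0.000351). Of 22 cell cycle genes, 2 were lower (1 without either E7.5 array) and none higher, with a median of -0.43. The one that passed throughout was Aurkb, a mitotic kinase, on a probe above background on no line array and 1 tissue array.

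Of 11 insulin-like growth factor genes, 4 were higher (3 without E7.5 replicate 2) and none lower (1 without line Wt1), with a median of 0.17. The binding protein Igfbp3 read 0.31 to 2.22 (median 1.37) against -1.82 and -2.09 (3.3 ± 0.34, adjusted p = 0.000236), Igfbp5 differed by 3.19 ± 0.50 (adjusted p = 0.00196) and Igfbp2 by 1.6 ± 0.25 (adjusted p = 0.0019). Of 9 LIF and Stat3 genes, 3 were higher and 1 lower, with a median of 0.40. The lower one, the receptor Lifr, was lost without either E7.5 array, without any Wnt inhibitor line, without 129Ba1 replicate 2, BNa17 replicate 2 or Wt1 replicate 2, or with the slide as a random block, and its other 2 probes gave 0.19 and 0.90. Stat3, the transcription factor of LIF and interleukin 6 receptors, read 0.86 to 3.45 (median 2.38) against -0.73 and -0.70 (3.06 ± 0.44, adjusted p = 0.00125), with 3.67 in J1, though its second probe gave 0.90. Bcl3 (2.81 ± 0.30, adjusted p = 0.000276) and the kinase Jak1 (1.29 ± 0.20, adjusted p = 0.00169) were the others. Of 10 metal handling genes, 3 were higher (1 and 0 without E7.5 replicate 1 and 2, 1 without line 129Ba1, 129Ba2 replicate 1 or BNa17 replicate 1) and 1 lower (2 without line 129Ba2, line BNa17, 129Ba1 replicate 2 or BNa17 replicate 2), with a median of 0.12. The lower one was Slc30a1, a zinc exporter (-1.96 ± 0.38, adjusted p = 0.0055).

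Among the genes called higher and measured above background on each of the 12 arrays, S100a6, a calcium-binding protein of stromal and proliferating cells, rose most, with 6.51 to 8.81 (median 7.49) in the lines and 0.34 and 0.41 at E7.5 (7.17 ± 0.36, adjusted p = 1.04e-05), and 7.04 in J1. Tmem63a, an ion channel gene, read 2.27 to 3.15 (median 2.69) against -1.71 and -2.01 (4.56 ± 0.20, adjusted p = 5.97e-06) and 1.5 in J1. The largest bounds, apart from members already given, belonged to the surface antigens Ly6c1 and Ly6a (at least 437-fold and 259-fold), the matrix protease Mmp3 (at least 403-fold), S100a4 (at least 328-fold), Anxa1 (at least 251-fold) and the matrix protein Mgp (at least 223-fold). Their J1 levels were 4.36, 3.46, 2.76, 4.56, 4.44 and 3.0, against E7.5 means of -5.29, -5.36, -5.28, -3.85, -5.07 and -5.58 on the same slide. Fibroblasts are known to express these genes, and the part of fibroblast RNA in their differences was not tested.

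Among genes called lower and well above background on all 12 arrays, the ribosomal protein gene Rps4l had the largest difference, with -1.71 to 1.51 (median -0.02) in the lines and 5.19 and 5.52 at E7.5 (-5.48 ± 0.59, adjusted p = 0.00031). It stood at 6.57 at E6.5 and 7.9 in J1. Tnfrsf19, a Wnt-responsive receptor also known as Troy, read -3.23 to 1.93 (median -1.59) against 3.97 and 4.14 (-5.14 ± 0.98, adjusted p = 0.00482), and its second probe gave -2.67. Ror2, a receptor for Wnt5a, read -0.08 to 0.62 (median 0.46) against 4.16 and 3.93 (-3.67 ± 0.23, adjusted p = 2.1e-05), and its 5 line means had an SD of 0.22. Greb1l, which acts in retinoic acid dependent development, read -1.04 to 2.03 (median 0.30) against 4.27 and 3.97 (-3.93 ± 0.66, adjusted p = 0.00277). Pcsk2, a prohormone convertase, differed by -3.19 ± 0.43 (adjusted p = 0.000886). Ror2, Greb1l and Pcsk2 were higher on the E7.5 than on the E6.5 arrays (1.35 ± 0.27, adjusted p = 0.014; 5.25 ± 0.79, adjusted p = 0.0051; 2.13 ± 0.51, adjusted p = 0.0287). Below background on every line array were the zinc finger gene Sall3 (at least 15.2-fold lower), Btla, a lymphocyte inhibitory receptor (at least 16.4-fold), and Upb1, of pyrimidine breakdown (at least 8.05-fold).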

How the data were processed

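The study hybridised 24 one-colour Cy3 Agilent arrays, 2 for each of 12 groups. The authors deposited each array's scanner output as linear intensity (processed signal, corrected by the scanner software, Feature Extraction 10.5.1.1 per the submitters' processing notes) and a table of log2 values, which was used as an alternative and matched each array's own scanner values (lowest r = 0.99997). The centring of that table is not given in the sources used here, and its column medians ran from -0.351 to 0.781.

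Control spots were left out, spots of a probe averaged, and log2 signal set relative to each array's 75th percentile. Of 55681 probes, 27235 were named through RefSeq accessions (GRCm38.p6), giving 20660 genes, each read from its brightest probe. A gene entered the tests if some group had it well above background on its 2 arrays (14754 genes). A linear model in limma 3.58.1 (R 4.3.3) was fitted to 11 samples, the 5 line means and the 6 tissue arrays (E5.5, E6.5, E7.5), with a second fit that separated the kinds of line. Tables were made with Python 3.11.15, pandas 2.3.3 and numpy 2.4.6. Replicate arrays correlated at r = 0.9696 to 0.9905, and the number of arrays limits the precision. On simulated data for the lines against E7.5 (14754 genes), 64% of genes changed by 1.5 on the log2 scale and 94% of those changed by 3 were called, with 10 unchanged genes called. The simulation had independent noise, few changed genes and no slide effect, so these shares do not carry over to the real comparison.

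The members and gene lists were chosen with earlier results of these data known. Named genes were the 15 largest differences in each direction among genes well above background on all 12 arrays, the 8 largest bounds, the 6 largest differences between kinds, up to 5 called members of each list, and 19 lineage markers listed by symbol; genes outside that rule are given as list members, picked after their values were seen. Alternatives changed background correction, normalization, filter, probe choice, blocks, fold minimum and samples. Replicate numbers did not pair the samples: over 15 pairs of groups the correlation of deviations ran from -0.348 to 0.287. Some list members are not reported here.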

Additional observations from a re-analysis of the deposited data

Results flagged for a closer look

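In 4 of 127 genes tested (3.15%), 1 of the 5 lines stood apart from the other lines by a gap that chance gives in about 1 in 20 groups (5%), so the share is below that which chance gives. The Wnt receptor gene Fzd10 read 2.19 in Wt1, the highest of the lines. Krt19, a keratin of simple epithelia, read 4.11 in 129C1, the highest. Crabp2, which carries retinoic acid to its receptor, read 3.12 in 129C1, the lowest. Psmb8, an immunoproteasome subunit, read 3.27 in Wt1, the highest.

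In 29 genes the 2 kinds of line were called in opposite directions against E7.5 and the difference between kinds passed limma's test, and 4 of these are among the genes the naming rule gives. Wnt inhibitor lines minus original-protocol lines gave -8.75 for Cfc1 (adjusted p = 4.19e-05), -8.39 for Foxa2 (adjusted p = 0.000242), -3.92 for Eomes (adjusted p = 0.00105) and 4.90 for Pmaip1 (adjusted p = 0.00034). All 4 differences between kinds passed without each of the 12 arrays in turn, with the highest adjusted p at 0.00156 for Eomes.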

How the results depend on the processing

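The count of called genes, 2595, moved by over 1.5 times with background correction, the filter, the fold minimum and E7.5 replicate 1. Normexp correction gave 1290 genes (824 higher, 466 lower), and for original-protocol lines, Wnt inhibitor lines and the difference between kinds 1673, 1374 and 375. Requiring all 12 arrays well above background gave 1400 (893 higher, 507 lower), and no fold minimum gave 4251, of which 1924 were lower. Leaving out 1 array or line gave 1547 (without E7.5 replicate 1) to 2740 (without line Wt1), with 953 to 1786 higher and 594 to 954 lower. For the kinds, leaving out 1 array gave 2511 to 3400 for original-protocol lines, 1990 to 2828 for Wnt inhibitor lines and 468 (without BNa17 replicate 2) to 853 (without BNa17 replicate 1) between them. No call had the opposite call under any setting. The slide as a random block gave 1996 genes, 1963 of them among the 2595, and of 181 called genes given by the naming rule it ended 33 calls (adjusted p from 0.0505 to 0.125). Of the genes reported here these were Isg15 (0.0535), Tfap2c (0.0952), Gata3 (0.102), Lefty2 (0.0691), T (0.115), Sp5 (0.12) and Lifr (0.119). Some differences changed sign: Kdr was -0.82 as the mean of all probes, Pmaip1 1.26 and Eomes -1.56 with only Wnt inhibitor lines, and Cfc1 2.07 and Foxa2 3.37 with only original-protocol lines. The fit with replicate number as a block called 3106 genes, 2451 of them among the 2595; the numbers did not pair the samples, so this is given only as a count. Normexp on mean signals, planned, was not run, and median signals were used in its place. Genes above background on no array of a group are limited to bounds, differences of genes above it on some arrays of a group include signals near background, and the cause of the other changes was not tested.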
